A study of Homo sapiens with 4 samples.

Results

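MCAM and 9 other adhesion molecules of the immunoglobulin superfamily (ALCAM, L1CAM, ICAM1, BCAM, NCAM1, F11R, CEACAM1, CADM1 and PVR) were followed across 4 RNA-seq libraries. The 10 genes were taken by symbol from a deposited table of 20252 genes, and all 10 were in it. The set was chosen by the FPKM of MCAM, whose lower level in the GALNT3 overexpression-labelled libraries was already known from this table, and completed with related molecules. The differences of the 10 genes between the labelled groups are therefore given as a description, without p-values.

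The libraries came from H2030, an established human lung adenocarcinoma line, at passage 5 to 10 and after 2 days in RPMI with 10% serum. There were 2 libraries with the label control vector and 2 with the label GALNT3 overexpression (GALNT3 places the first sugar of mucin-type O-glycans in the Golgi), with no other treatment. The sources used here do not name the vector or its promoter, nor do they say whether the cells were cloned. Nothing in the labels says that the 2 libraries of a group were separate cultures, so the spread between them may be technical.

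The row listed as GALNT3 went against the labels, and it stood out of alphabetical order (its length is given below). It was at 4.34 and 5.34 FPKM in the vector-labelled libraries and at 0.0164 and 0 FPKM in the GALNT3 overexpression-labelled libraries. FPKM is the number of sequenced fragments scaled to transcript length and to the mapped fragments of the library, so it allows levels of genes of different length to be compared. Every direction below is between the libraries as labelled and would reverse with the labels. Relative depth, read from the most common ratio of low values between libraries, ran from 0.966 to 1.07.

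Adhesion molecules of the immunoglobulin superfamily are membrane proteins whose extracellular part is a string of immunoglobulin domains. They bind a copy of themselves on a neighbouring cell, another member of the family, an integrin or a matrix protein. Many have short cytoplasmic tails that tie them to the actin cytoskeleton. MCAM, also called melanoma cell adhesion molecule, is known from endothelium, pericytes and smooth muscle and from melanoma, where it goes with invasive growth, and it binds laminins and galectins.

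The promoters of MCAM and ICAM1 are shown because both genes could be counted in whole fragments and their groups lay apart in opposite directions. The sequences are the 250 bases before the annotated start, from RefSeq on GRCh38.p14, written 5′ to 3′ on the strand of the gene. MCAM is read from the minus strand at chr11:119317131-119317380 and ICAM1 from the plus strand at chr19:10270870-10271119. Capitals mark matches, on either strand, to the GC box GGGCGG, the AP-2 motif GCCNNNGGC, the cyclic AMP response element TGACGTCA and the NF-kB motif GGAAATTCC.
MCAM promoter: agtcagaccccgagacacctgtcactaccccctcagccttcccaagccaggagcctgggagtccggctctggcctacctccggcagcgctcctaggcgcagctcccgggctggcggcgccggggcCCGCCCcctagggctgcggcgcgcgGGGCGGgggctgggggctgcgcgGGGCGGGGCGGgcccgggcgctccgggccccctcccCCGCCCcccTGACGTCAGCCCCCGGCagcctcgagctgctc
ICAM1 promoter: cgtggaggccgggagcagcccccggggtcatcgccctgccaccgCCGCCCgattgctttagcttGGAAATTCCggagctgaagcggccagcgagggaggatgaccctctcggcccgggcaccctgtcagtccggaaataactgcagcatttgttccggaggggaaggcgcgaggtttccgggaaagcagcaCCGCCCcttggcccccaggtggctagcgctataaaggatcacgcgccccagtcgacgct

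The MCAM window held 5 GC boxes, 1 cyclic AMP response element from 32 to 25 bases before the start and, directly after it, 1 AP-2 motif. Its GC content was 79.6%, against a median of 58.0% over all promoters of this length. The ICAM1 window held 2 GC boxes and 1 NF-kB motif from 186 to 178 bases before the start. Over 35116 promoter windows of the same length, 42.6% held a GC box, 19.8% the AP-2 motif, 1.65% the cyclic AMP response element and 0.413% the NF-kB motif. Of the 7 of the 10 genes matched in the promoter table, only MCAM had the cyclic AMP response element and only ICAM1 the NF-kB motif. Each motif was searched as 1 fixed pattern, so the percentages hold for these letters and other forms of the motifs were not counted. The GC box, AP-2 and cyclic AMP patterns belong to factors known to act at the MCAM promoter, so finding them there was not a test. Such matches describe letters and do not show a bound factor.

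The 10 genes spanned a wide range of levels. In the vector-labelled libraries, PVR was highest at 24.3 ± 2.8 FPKM (SD, n = 2), followed by F11R at 21.2 ± 3.5, CADM1 at 16.5 ± 0.50, ALCAM at 13.3 ± 0.84 and BCAM at 11.4 ± 2.9 FPKM. MCAM at 6.69 ± 1.2 and ICAM1 at 6.32 ± 0.21 FPKM stood side by side, above L1CAM at 1.45 ± 0.028, NCAM1 at 0.790 ± 0.18 and CEACAM1 at 0.327 ± 0.10 FPKM. Neighbours in this order whose libraries overlapped were PVR with F11R, ALCAM with BCAM, and MCAM with ICAM1. In the GALNT3 overexpression-labelled libraries MCAM was eighth of the 10, below ICAM1 and with libraries overlapping those of L1CAM.

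MCAM was at 7.56 and 5.81 FPKM in the vector-labelled libraries, and at 1.63 and 1.36 FPKM in the GALNT3 overexpression-labelled libraries. Both libraries of the first group lay above both of the second, with a gap wider than the spread within either group. The group means were 6.69 ± 1.2 and 1.49 ± 0.19 FPKM (SD, n = 2), a 4.48-fold difference. On the log2(FPKM + 1) scale, which understates changes of low genes, the difference was -1.62 ± 0.14 (SE of the limma fit over all genes). MCAM made up 7.14% and 5.90% of the summed FPKM of the 10 genes in vector replicates 1 and 2. It made up 1.54% and 1.29% in GALNT3 overexpression replicates 1 and 2, while the sum over the 10 genes stayed between 98.5 and 105.9 FPKM in all 4 libraries.

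**Figure D1:**
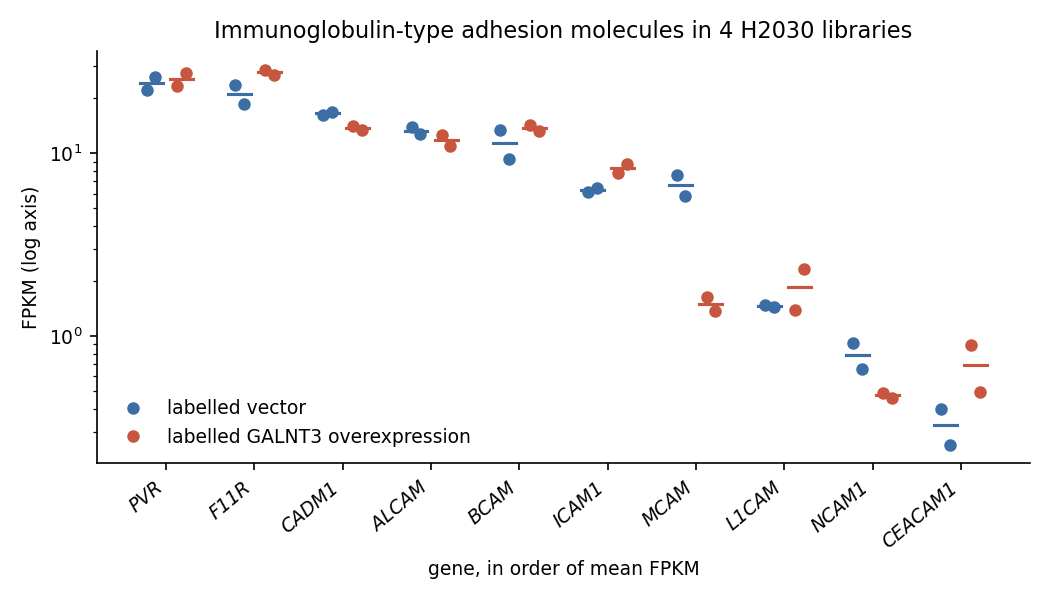
FPKM (log axis) of the 10 genes in order of mean level. Points are libraries, 2 per labelled group, and bars are group means. MCAM lies at 5.81 and 7.56 FPKM in the vector-labelled libraries and at 1.36 and 1.63 FPKM in the others, while the other genes above 1 FPKM differ by less between groups.

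The MCAM values could be read as whole fragments: 518 and 367 in vector replicates 1 and 2, and 101 and 84 in GALNT3 overexpression replicates 1 and 2, with no value farther than 0.00039 from a whole number. After correction for depth, 885 fragments against 185 gave a 4.50-fold ratio, with a 95% exact interval from 3.84 to 5.30. Such intervals take each fragment as a separate molecule, so copies made by PCR would make them too narrow even for counting error. The counts of the single libraries had 95% exact Poisson intervals of 474 to 565, 330 to 407, 82.3 to 123 and 67.0 to 104 fragments, in the same order. These intervals did not overlap between the groups. Those of vector replicates 1 and 2 did not overlap each other either, also in FPKM (6.92 to 8.24 and 5.23 to 6.44). The libraries of that group thus differed by more than these intervals allow, and the interval of the ratio does not cover this spread.

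Whether the MCAM values belong to the MCAM symbol was checked because its row stood out of alphabetical order, as did those of NCAM1 and CEACAM1 and 2615 of the 20252 rows in all. The value of 1 fragment falls as the transcript length the authors divided by rises. It was turned into a length by a scale, the median of value times annotated length over 445 other genes with 1 protein-coding transcript. For MCAM that length was 3356 bases, against 3313 bases for MCAM-201, its only protein-coding transcript in GENCODE 29. It was 3264 against 3252 bases for ICAM1 and 5149 against 5141 bases for the nearest L1CAM transcript. For GALNT3, whose row also stood out of order, it was 3286 against 3868 bases for the nearest transcript, a ratio of 0.85. Of the 445 genes that set the scale, which had 100 to 600 fragments in their highest library, 54.6% came out within 10% of the annotated length. Since the others missed by more, the length of GALNT3 neither supported nor excluded its symbol. How often a wrong symbol would match was not measured, so the match of MCAM is a description. NCAM1 and CEACAM1, like the remaining members, gave no whole fragments, so their rows were not checked in this way.

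MCAM is transcribed from the minus strand and spans chromosome 11 from 119308529 to 119321521 (GENCODE 29, GRCh38), and its end overlaps that of CBL, a ubiquitin ligase gene on the plus strand. Exons of the genes share 509 bases, none of them in MCAM-201. The library kit keeps strand, but whether the counting used it is not stated. CBL was at 7.09 and 5.13 FPKM in the vector-labelled libraries and at 5.92 and 5.41 FPKM in the others, so its libraries overlapped between the groups.

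Of the 11 protein-coding genes within 200 kb of MCAM that are in the table, 6 reached the mean of 1 FPKM required for testing, and 0 passed the test (limma on log2(FPKM + 1), adjusted over 10998 genes, threshold 0.05). At an unadjusted p below 0.05 the number was also 0, against 7.34% of all tested genes. RNF26, an endoplasmic reticulum ubiquitin ligase gene and the nearest coding neighbour with no overlap, was at 26.0 ± 1.4 and 26.7 ± 2.2 FPKM (SD, n = 2; adjusted p = 0.972). USP2, a deubiquitinase gene, was at 1.80 ± 0.48 and 2.32 ± 0.080 FPKM (adjusted p = 0.788). THY1, another adhesion molecule of the family, whose gene lies 95857 bases beyond that of MCAM, was listed at 0 in all 4 libraries.

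**Figure D2:**
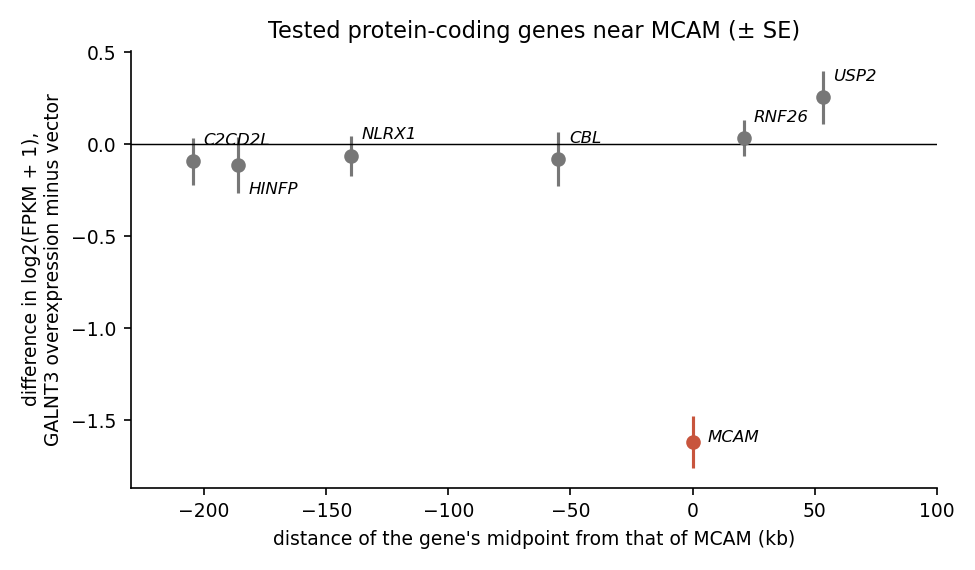
Difference in log2(FPKM + 1), GALNT3 overexpression minus vector, for MCAM (red) and the 6 tested protein-coding genes near it (grey), by distance between midpoints in kb. Bars are SE of the limma fit. MCAM lies at -1.62, and the neighbours lie between -0.11 and 0.26.

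Among the 10 genes, 8 reached the mean of 1 FPKM, and 1 of these 8, MCAM, was past the threshold of adjusted p = 0.05 in the limma fit. Over all 10998 tested genes 0.5% were past it, 0.391% lower and 0.109% higher in the GALNT3 overexpression-labelled libraries. Since MCAM was picked for this difference, the count supports nothing further. The groups did not overlap in 5 of the 8, with 3 lower and 2 higher, against 36.2% of all tested genes (15.3% lower and 20.9% higher). The 7 tested genes other than MCAM had differences from -0.25 to 0.38 on the log2 scale, with a median of 0.20 against 0.02 over all tested genes. No test set MCAM against the other members.

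PVR and F11R were the most abundant members. PVR, the poliovirus receptor, which binds nectins and the lymphocyte receptors TIGIT and CD226, was at 22.3 and 26.3 FPKM in the vector-labelled libraries and at 23.4 and 27.6 FPKM in the others. Its replicates differed more than its groups, and the log2 difference was 0.07 ± 0.12 (SE), ranging from -0.05 to 0.18 with 1 library left out. F11R, the tight junction protein JAM-A, was at 23.6 and 18.7 FPKM in the vector-labelled libraries and at 28.7 and 26.6 FPKM in the others. Both GALNT3 overexpression-labelled libraries were higher, by 0.38 ± 0.12 (SE) on the log2 scale, a 1.31-fold difference of means, and F11R did not pass the threshold. Without vector replicate 2 the difference was 0.22.

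CADM1 and ALCAM lay lower in the GALNT3 overexpression-labelled libraries without passing the threshold. CADM1, a lung tumour suppressor that joins epithelial cells, was at 16.2 and 16.9 FPKM in the vector-labelled libraries and at 14.0 and 13.5 FPKM in the others, a log2 difference of -0.25 ± 0.090 (SE). ALCAM, the ligand of CD6 on T cells and a homophilic adhesion molecule, was at 13.9 and 12.7 FPKM against 12.6 and 10.98 FPKM, a difference of -0.16 ± 0.11. The ALCAM difference was -0.07 without GALNT3 overexpression replicate 2 and -0.10 without vector replicate 1, and it was -0.25 without GALNT3 overexpression replicate 1. The groups were apart in both genes, for ALCAM by a margin smaller than the spread within either group.

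BCAM and ICAM1 lay higher in mean level, again without passing. BCAM, a receptor for the laminin alpha 5 chain, was at 13.4 and 9.32 FPKM in the vector-labelled libraries and at 14.2 and 13.2 FPKM in the others, and vector replicate 2 stood below the remaining libraries. Its log2 difference of 0.27 ± 0.16 (SE) became 0.03 without vector replicate 2 and 0.51 without vector replicate 1. ICAM1, the endothelial and epithelial ligand of leukocyte beta 2 integrins, was at 6.17 and 6.47 FPKM against 7.83 and 8.73 FPKM. Counted in whole fragments ICAM1 had 411 and 397 against 473 and 524, and the depth-corrected ratio for GALNT3 overexpression over vector was 1.31, with a 95% exact counting interval from 1.19 to 1.44.

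L1CAM, NCAM1 and CEACAM1 were low. L1CAM, a neural molecule that many carcinomas also express, was at 1.47 and 1.43 FPKM in the vector-labelled libraries and at 1.39 and 2.32 FPKM in the others. In fragments this was 155 and 139 against 133 and 220, so GALNT3 overexpression replicate 2 stood apart from the other 3 libraries and the groups overlapped. The L1CAM log2 difference was 0.20 ± 0.17 (SE), and it became -0.04 when GALNT3 overexpression replicate 2 was left out and 0.44 when replicate 1 of that group was. NCAM1, the neural cell adhesion molecule, was at 0.917 and 0.662 FPKM against 0.489 and 0.458 FPKM. CEACAM1, a homophilic molecule of epithelia and leukocytes with near-identical paralogs that can exchange fragments with it, was at 0.399 and 0.254 FPKM against 0.888 and 0.494 FPKM. NCAM1 and CEACAM1 did not reach the mean of 1 FPKM and were not tested.

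Whether the MCAM difference stood alone was examined across a wider list of 95 other adhesion molecules of the superfamily. Of these, 27 were listed at 0 in all 4 libraries and 30 were tested. Past the threshold, 0 rose and 1 fell (3.33% of the tested, against 0.5% over all genes). Genes below a mean of 1 FPKM were not tested, and some of them differed several-fold in either direction. CNTN5 was at 0.203 and 0.194 FPKM in the vector-labelled libraries and at 0.0118 and 0 FPKM in the others. CHL1 was at 0.180 and 0.118 against 0.0354 and 0.0326 FPKM, and CEACAM6 at 0.0188 and 0.0204 against 0.145 and 0.104 FPKM. In the genes counted in whole fragments here, 1 fragment was worth 0.0105 to 0.0208 FPKM. The low values of CNTN5, CHL1 and CEACAM6 may thus rest on few fragments. The tested gene that fell was CLMP, a tight junction molecule related to the coxsackievirus and adenovirus receptor. It was at 6.002 and 5.03 FPKM in the vector-labelled libraries and at 0.975 and 1.61 FPKM in the others. Both GALNT3 overexpression-labelled libraries were lower, and the group means differed 4.27-fold, with a log2 difference of -1.52 ± 0.16 (SE; limma, adjusted p = 0.0126). Without vector replicate 1 CLMP did not pass (-1.41, adjusted p = 0.0949).

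In whole fragments CLMP had 319 and 246 in the vector-labelled libraries and 47 and 77 in the others, and the depth-corrected ratio was 4.29, with a 95% exact counting interval from 3.52 to 5.25. The implied length was 2602 bases, against 5072 bases for its protein-coding transcript in GENCODE 29. This length did not support the symbol of CLMP, though many of the genes that set the scale also missed by more than 10%. As with MCAM the row stood out of alphabetical order. CLMP is therefore named below by the listed symbol only. MCAM and CLMP had the lowest differences of the 38 tested genes of the family, and MCAM was 15th lowest of all 10998 tested genes. CLMP lies on the same chromosome as MCAM, from 123069865 to 123195281, and so do the members NCAM1 and CADM1. CADM1, from 115169218 to 115504957, had a log2 difference of -0.25. A part of position in the differences was not tested.

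The other 29 tested genes of the list did not pass, and their log2 differences ran from -0.43 to 0.25. ROBO2, a receptor for the axon guidance protein SLIT, was lowest among them at 1.31 and 1.43 FPKM against 0.640 and 0.883 FPKM (limma, adjusted p = 0.442). NEGR1, a neuronal adhesion molecule, followed at 7.17 and 6.83 FPKM against 5.63 and 4.87 FPKM (adjusted p = 0.428). The 4 most abundant were BSG (basigin, a chaperone of lactate transporters), its relative NPTN, AMIGO2 and KIRREL1. BSG was at 252.9 ± 12 and 272.8 ± 9.0 FPKM (SD, n = 2; adjusted p = 0.891), and NPTN at 51.4 ± 3.2 and 52.5 ± 4.0 FPKM. AMIGO2 was at 34.8 ± 6.9 and 29.4 ± 4.6 FPKM, and KIRREL1 at 32.9 ± 1.0 and 28.7 ± 4.0 FPKM. The median difference of the 30 genes was 0.03, close to the 0.02 of all tested genes, and 17 were positive and 13 negative.

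**Figure D3:**
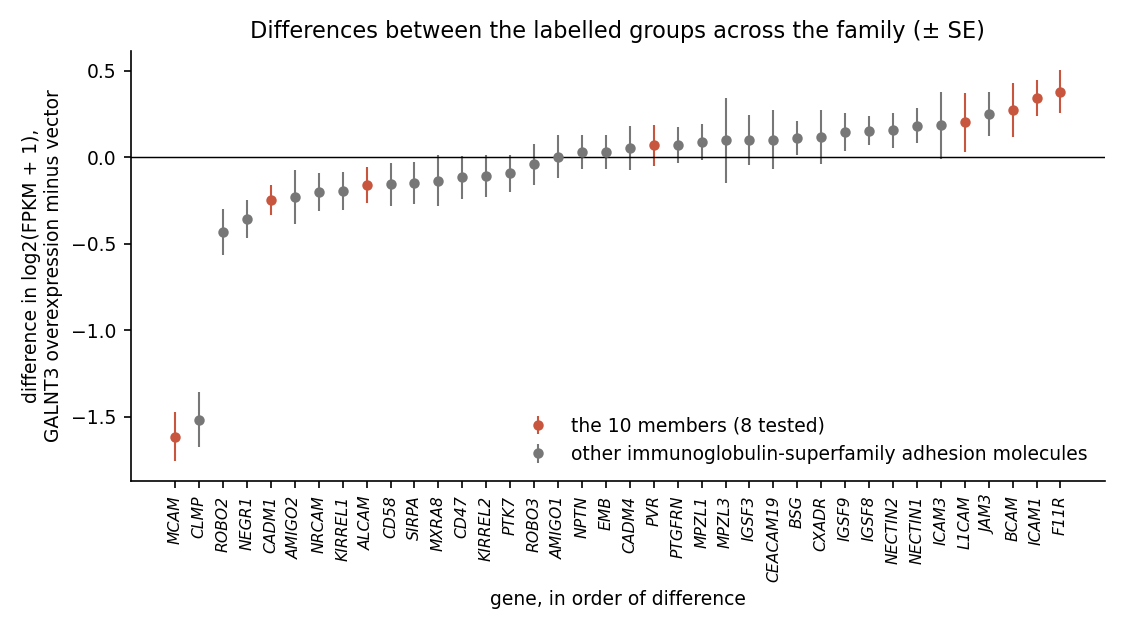
Difference in log2(FPKM + 1), GALNT3 overexpression minus vector, for the 38 tested immunoglobulin-superfamily adhesion molecules in rank order, with SE bars. MCAM at -1.62 and CLMP at -1.52 stand apart from the other 36 genes, which lie between -0.43 and 0.38.

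Extracellular partners of the 10 genes, listed as 40 genes, had 18 tested members, of which 0 passed (limma) and 3 had an unadjusted p below 0.05, against 7.34% of all tested genes. LGALS1, a galectin that binds MCAM, was the most abundant at 1070 and 908 FPKM in the vector-labelled libraries and at 998 and 898 FPKM in the others, and the groups overlapped. LAMB1 and LAMA5, chains of laminins, were at 88.5 ± 5.3 and 98.4 ± 2.8 FPKM and at 49.6 ± 1.1 and 57.5 ± 11 FPKM (SD, n = 2). ITGB1, the beta chain of the integrins that bind L1CAM, was at 267.7 ± 14 and 230.2 ± 12 FPKM (adjusted p = 0.721). S100A9, a calcium-binding protein for which MCAM is a receptor, was at 7.77 and 4.28 FPKM against 16.0 and 10.0 FPKM, apart between the groups but not past the threshold (adjusted p = 0.322). NECTIN2, the family member that pairs with the same lymphocyte receptors as PVR, was at 26.0 ± 2.9 and 28.98 ± 0.69 FPKM (adjusted p = 0.834).

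Cytoplasmic partners, which join these molecules to actin, junction scaffolds and phosphatases, had 20 tested of 24, with 0 passing (limma) and 1 at an unadjusted p below 0.05, a share under the 7.34% of all tested genes. That 1 was EZR (ezrin), which links membrane proteins to actin. It was at 98.0 and 99.4 FPKM in the vector-labelled libraries and at 126.5 and 136.1 FPKM in the others, a log2 difference of 0.41 ± 0.090 (SE; adjusted p = 0.180). ACTN1 and ACTN4, the actin crosslinkers that bind the tail of ICAM1, were at 207.3 ± 7.4 and 244.6 ± 28 FPKM and at 94.9 ± 3.6 and 106.3 ± 15 FPKM (SD, n = 2). CTNNA1, alpha-catenin, was at 115.5 ± 5.5 and 129.3 ± 1.9 FPKM.

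Shedding proteases and glycan-modifying enzymes had 6 tested of 9, with 0 passing (limma) and 0 at an unadjusted p below 0.05. ADAM10 and ADAM17, which cleave ALCAM and L1CAM from the cell surface, were at 21.7 ± 0.73 and 23.8 ± 1.2 FPKM and at 22.3 ± 1.1 and 20.3 ± 0.55 FPKM (SD, n = 2). MMP14, a membrane-bound metalloproteinase, was at 57.4 ± 9.6 and 59.8 ± 11 FPKM. MGAT5, which branches N-glycans, was at 19.6 ± 1.9 and 19.9 ± 0.90 FPKM. Of the enzymes too low to be tested, ST8SIA2 was at 0.168 and 0.210 FPKM in the vector-labelled libraries and at 0.00928 and 0.0187 FPKM in the others. Its low values may rest on few fragments. ST8SIA4 was at 0.119 and 0.0729 against 0.0494 and 0.0580 FPKM, and MMP2 was listed at 0.

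Factors known to act at the MCAM promoter had 7 tested of 7, with 0 passing (limma) and 0 at an unadjusted p below 0.05. SP1 and SP3, which bind GC boxes, were at 13.1 ± 1.2 and 12.7 ± 0.61 FPKM and at 16.4 ± 0.54 and 16.7 ± 0.86 FPKM. TFAP2C, an AP-2 factor, was at 33.6 ± 3.4 and 39.1 ± 3.1 FPKM (adjusted p = 0.746). ETS1, whose motif was not among those searched, was at 20.9 ± 3.4 and 21.9 ± 3.7 FPKM (SD, n = 2). The log2 differences of the 7 factors ran from -0.07 to 0.21.

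Other adhesion families were set beside the superfamily as a description. Of 26 integrin subunits 12 were tested and 0 passed (limma), with 4 at an unadjusted p below 0.05 (7.34% of all tested genes were) and differences from -0.25 to 0.53. Of 20 classical cadherins 4 were tested and 0 passed, with 1 at an unadjusted p below 0.05 against the same 7.34%, and CDH11 had the largest difference, 0.88 ± 0.20 (SE; adjusted p = 0.192). Neither list held a tested gene with a difference below -0.25. MCAM was chosen for its fall and CLMP was named for passing the threshold. That both lay below these ranges is therefore no comparison of the families.

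**Figure D4:**
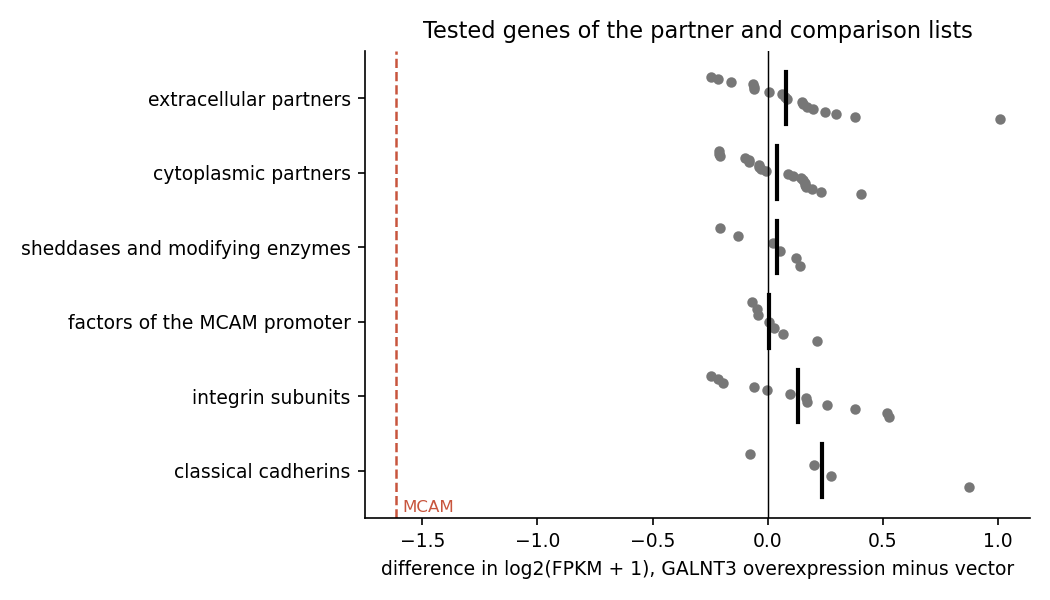
Difference in log2(FPKM + 1), GALNT3 overexpression minus vector, for the tested genes of 6 lists. Points are genes, black bars list medians, and the dashed line is MCAM at -1.62. The genes of all 6 lists lie between -0.25 and 1.01.

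The genes whose pattern over the 4 libraries was nearest to MCAM were TMEM200B, IGFBP6, C9orf30-TMEFF1, SERPINB1 and HTATIP2. Likeness was the Euclidean distance between log2(FPKM + 1) values centred on each gene's mean, which was 0.14 for TMEM200B and 0.34 for HTATIP2. TMEM200B was at 2.24 and 1.79 FPKM in the vector-labelled libraries and listed at 0 in both others. IGFBP6, a binding protein of insulin-like growth factors, was at 3.06 and 2.09 FPKM against 0.464 and 0.133 FPKM. SERPINB1, an inhibitor of neutrophil proteases, was at 10.5 and 6.62 FPKM against 2.97 and 2.19 FPKM. Each of the 5 was lower in the GALNT3 overexpression-labelled libraries, a direction that the measure of likeness itself requires. TMEM200B, C9orf30-TMEFF1 and IGFBP6 were below 1 FPKM in both of these libraries. They reached the mean of 1 FPKM required for testing only through the vector-labelled libraries.

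For the other members at a mean of at least 10 FPKM the nearest gene was KIAA1598 for ALCAM, CCDC28A for BCAM, VEGFC for F11R, C21orf15 for CADM1 and MSTO1 for PVR. VEGFC, a growth factor of lymphatic vessels, was at 21.9 and 17.8 FPKM in the vector-labelled libraries and at 27.2 and 24.97 FPKM in the others, with the same order of libraries as F11R. With 4 libraries such likeness is a description and carries no test.

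Of the markers of cells in which MCAM is normally abundant, those of endothelium and melanocytes summed to less than 1 FPKM in each library, and those of pericytes and smooth muscle did not. The summed level of 5 endothelial markers was 0.283 to 0.319 FPKM in the vector-labelled libraries and 0.333 to 0.652 FPKM in the others, and PECAM1 was listed at 0 in 3 libraries and at 0.0119 FPKM in the fourth. The 5 pericyte and smooth muscle markers summed to 2.73 to 3.62 and 2.73 to 2.76 FPKM, with MYH11 listed at 0. Most of this was ACTA2, a smooth muscle actin, at 2.64 and 1.78 FPKM in the vector-labelled libraries and at 1.95 and 1.85 FPKM in the others, below MCAM in the former and above it in the latter. The 4 melanocyte markers summed to 0.353 to 0.360 and 0.340 to 0.614 FPKM, with TYR and SOX10 listed at 0. The 3 leukocyte markers summed to 3.77 to 3.92 and 4.84 to 5.79 FPKM, nearly all ITGB2, with CD3E listed at 0. The 3 neuroendocrine markers summed to 2.21 to 3.45 and 1.80 to 2.60 FPKM, mostly SYP, with INSM1 listed at 0.

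Of 5 epithelial markers, KRT18 at 330.7 to 439.2 FPKM and KRT8 at 109.3 to 144.6 FPKM were high over the 4 libraries, while EPCAM at 0.459 to 1.40 FPKM and CDH1 at 0.0495 to 0.209 FPKM were low and KRT19 was listed at 0. The 5 summed to 441 to 511 FPKM in the vector-labelled libraries and 564 to 585 FPKM in the others, and their part in the differences above was not tested. An exact 0 in this table can be a failed estimate. In bulk RNA, fewer cells with a transcript and less of it per cell cannot be told apart.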

How the data were processed

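Per the labels' protocols, column-purified RNA went into a stranded mRNA library kit. The authors deposited 1 table of FPKM, with 1 column for each of 4 libraries. The header names no unit, and FPKM was read from the values. The submitters' processing notes list TopHat, GenomeStudio 2010.1, GRCh38 and hg19 without roles. How fragments were counted and filtered is not given in these sources.

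The 10998 genes whose mean reached 1 FPKM were transformed to log2(FPKM + 1) and compared between the groups, without covariates, by limma 3.58.1 with a mean-variance trend (R 4.3.3). P-values are two-sided, Benjamini-Hochberg adjusted over all tested genes, with a threshold of 0.05. An exact permutation test of 2 against 2 libraries cannot go below p = 0.333, so calls rest on variance shared between genes. The fit was tested on simulated data.

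Relative depth came from the most common ratio of low values between libraries. A gene was read as whole fragments where all 4 values fell within 0.002 of whole numbers, and the total number of fragments is unknown. Positions and lengths are from GENCODE 29, matched by symbol, and 6 listed symbols were matched through older names. Python 3.11.15 with scipy 1.17.1 was used.

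The members and gene lists were chosen with earlier results of these data known. Named genes are the 10 members, the 4 most abundant tested genes of a list, every gene of a list past the threshold and the genes nearest in pattern. The integrin and cadherin lists were given as counts and ranges, without their most abundant genes. ROBO2, NEGR1, S100A9, NECTIN2, CDH11 and the neighbours of MCAM were named after their values were seen. So were the untested CNTN5, CHL1, CEACAM6, ST8SIA2, ST8SIA4 and MMP2. Alternatives were 2 pseudocounts, 2 filters, 2 scalings, no trend, no genes listed at 0, a replicate block and leaving out each library. Some marker genes are not reported here.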

Additional observations from a re-analysis of the deposited data

How the results depend on the processing

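MCAM was lower in the libraries labelled GALNT3 overexpression under each of the 12 alternatives that could test it. Its log2 difference was -0.84 with a pseudocount of 5, which shrinks the differences of low genes, and -1.84 with 0.5. With 1 library left out it ran from -1.78 to -1.45. With a mean of at least 5 FPKM MCAM was not tested, leaving 0 members past the threshold, and testing every gene above 0 also left 0. Among the 95 other adhesion molecules the number was 0 under both filters, and 0 to 1 with 1 library left out. Over all genes it was 55, with 31 at a mean of at least 5 FPKM, 12 with every gene above 0 and 23 to 83 with 1 library left out (the lowest without vector replicate 1, the highest without GALNT3 overexpression replicate 2). In those fits the lone library of a group is assumed to vary like the other group.

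With replicate number as a block, 443 genes passed, including 3 members (MCAM, ICAM1 and F11R) and 2 of the other adhesion molecules (CLMP and NEGR1). Differences between replicates 1 and 2 correlated at r = 0.22 between the groups across genes, but 2 pairs do not show that the numbers pair the samples. NCAM1 and CEACAM1 were tested only with every gene above 0, and since the total number of fragments is unknown, what depth limits was not measured.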
